A study of Mus musculus with 8 samples.

Results

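The matrix metalloproteinases and their tissue inhibitors were followed in mouse liver after carbon tetrachloride (CCl4), a solvent that injures hepatocytes once cytochrome P450 has activated it. The set was chosen by symbol: 9 genes (Timp1, Timp2, Timp3, Mmp2, Mmp9, Mmp12, Mmp13, Mmp14 and Mmp19), all 9 of which were on the array, with 13 probes among 25697. Of these, 7 had a probe that passed the detection filter and were tested among 7257 genes. Livers of Balb/c mice aged 2 months were profiled, with 1 Illumina bead array for each of 8 samples. Wild-type mice gave 1 vehicle array and 3 CCl4 arrays, and mice lacking both interleukin genes, labelled IL-4/IL-13-/-, likewise gave 1 vehicle array and 3 CCl4 arrays. Both genotypes therefore share strain, age and tissue. Details not given in the sources used here are the CCl4 dose, route and time, the sex of the mice, and whether each array is a separate animal. The spread behind each p-value is therefore that between arrays, which may be technical.

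Matrix metalloproteinases are zinc-dependent enzymes that cut collagens, basement membrane and elastin, and most are made as inactive precursors. The tissue inhibitors (TIMPs) bind their active sites. Timp2 also acts in activation: with the membrane-bound Mmp14 it holds the Mmp2 precursor at the cell surface, where another Mmp14 molecule activates it. In injured liver, stellate cells and macrophages are known sources of several of these proteins, and IL-4 and IL-13 are cytokines known to promote fibrosis in several models. Whole liver was measured, so fewer cells of a type and less RNA per cell cannot be told apart.

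Median intensities ran from 60.9 to 76.9 over the 8 arrays, from 68.5 to 76.9 on the wild-type CCl4 arrays and from 63.6 to 66.9 on the knockout CCl4 arrays, and 8899 to 9821 probes per array were detected. Precision is limited by how few arrays there are: over all genes the median standard error, in log2 units, was 0.174 between genotypes after CCl4 and 0.347 for the interaction. Arrays within the wild-type CCl4 group correlated at 0.977 to 0.983, arrays within the knockout CCl4 group at 0.987, and arrays across these groups at 0.962 to 0.977. The secreted hepatocyte genes Apoa1 and Ttr were detected on 8 of 8 arrays, from 14689 to 20676 and from 14103 to 17402, although the Alb probe was dim (83.8 to 134). Il4 and Il13 were detected on no array and check nothing about the genotype. A probe is called detected on an array where its detection p-value, set against negative control beads, was under 0.01. Below, single-array values are deposited intensities on a linear scale, and group means and differences are normalized log2 values, on which 1 unit is a 2-fold difference. Differences were tested with limma, with Benjamini-Hochberg adjustment over all 7257 genes and a threshold of 0.05.

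The promoters of Mmp13, Mmp12 and Timp1 are shown because these 3 genes were higher after CCl4 and their windows hold a form of the motif bound by AP-1, the Fos and Jun dimer known to drive several MMP genes. RefSeq windows on GRCm38.p6, from 250 bases before to 50 bases after the annotated start, were matched for 6 of the 9 genes. The Mmp13 window is chr9:7272264-7272563, the Mmp12 window with a match is chr9:7347124-7347423 and the Timp1 window is chrX:20869916-20870215, all on the plus strand. Capitals mark the AP-1 motif TGANTCA, or in Timp1 its variant TGAGTAA.
Mmp13: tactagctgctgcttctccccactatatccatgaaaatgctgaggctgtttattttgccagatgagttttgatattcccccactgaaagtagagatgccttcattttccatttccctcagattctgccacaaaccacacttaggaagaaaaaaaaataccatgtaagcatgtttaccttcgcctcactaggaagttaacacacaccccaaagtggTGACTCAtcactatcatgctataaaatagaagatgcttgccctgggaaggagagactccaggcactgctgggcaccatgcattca
Mmp12: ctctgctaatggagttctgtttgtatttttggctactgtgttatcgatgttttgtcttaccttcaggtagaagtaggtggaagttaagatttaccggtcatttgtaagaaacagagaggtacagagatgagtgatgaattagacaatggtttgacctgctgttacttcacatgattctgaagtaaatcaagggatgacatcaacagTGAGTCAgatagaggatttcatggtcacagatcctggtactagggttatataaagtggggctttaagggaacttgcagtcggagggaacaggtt
Timp1: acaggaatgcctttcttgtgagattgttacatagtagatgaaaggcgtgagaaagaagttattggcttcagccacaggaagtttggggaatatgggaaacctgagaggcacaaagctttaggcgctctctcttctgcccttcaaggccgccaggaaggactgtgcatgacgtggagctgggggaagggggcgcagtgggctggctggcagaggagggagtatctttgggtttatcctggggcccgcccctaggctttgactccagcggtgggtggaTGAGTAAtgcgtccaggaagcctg
The TGACTCA of Mmp13 began 35 bases before the start, with TATAAA beginning 16 bases before that start. The TGAGTCA of Mmp12 began 44 bases before the annotated start on which its window is placed, and TATAAA began 4 bases after that start. This window lies inside the annotated Mmp12 gene, which runs from 7344397 to 7360461. The TGAGTAA of Timp1 began 26 bases after the start. Among all 32851 windows, searched on both strands, 7.81% hold TGANTCA and 2.68% hold TGAGTAA. The TATA box motif TATAAA was searched on the printed strand only, and 8.32% hold it. The other Mmp12 window (chr9:7344147-7344446) is the one at the annotated gene start, 7344397. It and the windows of Timp2, Timp3 and Mmp14 hold none of the 3 motifs. A match is a description of these letters and not a site of binding.

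After CCl4, Timp1, Mmp12, Mmp13 and Mmp14 rose over the vehicle arrays when both genotypes were averaged, while Timp2, Timp3 and Mmp2 did not pass. All 6 CCl4 arrays lay above both vehicle arrays for those 4 genes. Of all genes tested, 37.5% were called in this comparison, 18.9% higher. The CCl4 and vehicle arrays did not overlap for 38.8% of genes, and in 19% CCl4 was the higher. The median difference of the 7 tested members was 1.00 on the log2 scale, against -0.02 over all genes. Against that background, 4 of 7 higher and 0 of 7 lower is a larger share of higher calls, with no test of the list itself. The members were chosen with earlier results of these data known, so this share describes only the genes listed. Timp1 and Mmp12 also passed the detection filter only through their CCl4 arrays.

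**Figure D1:**
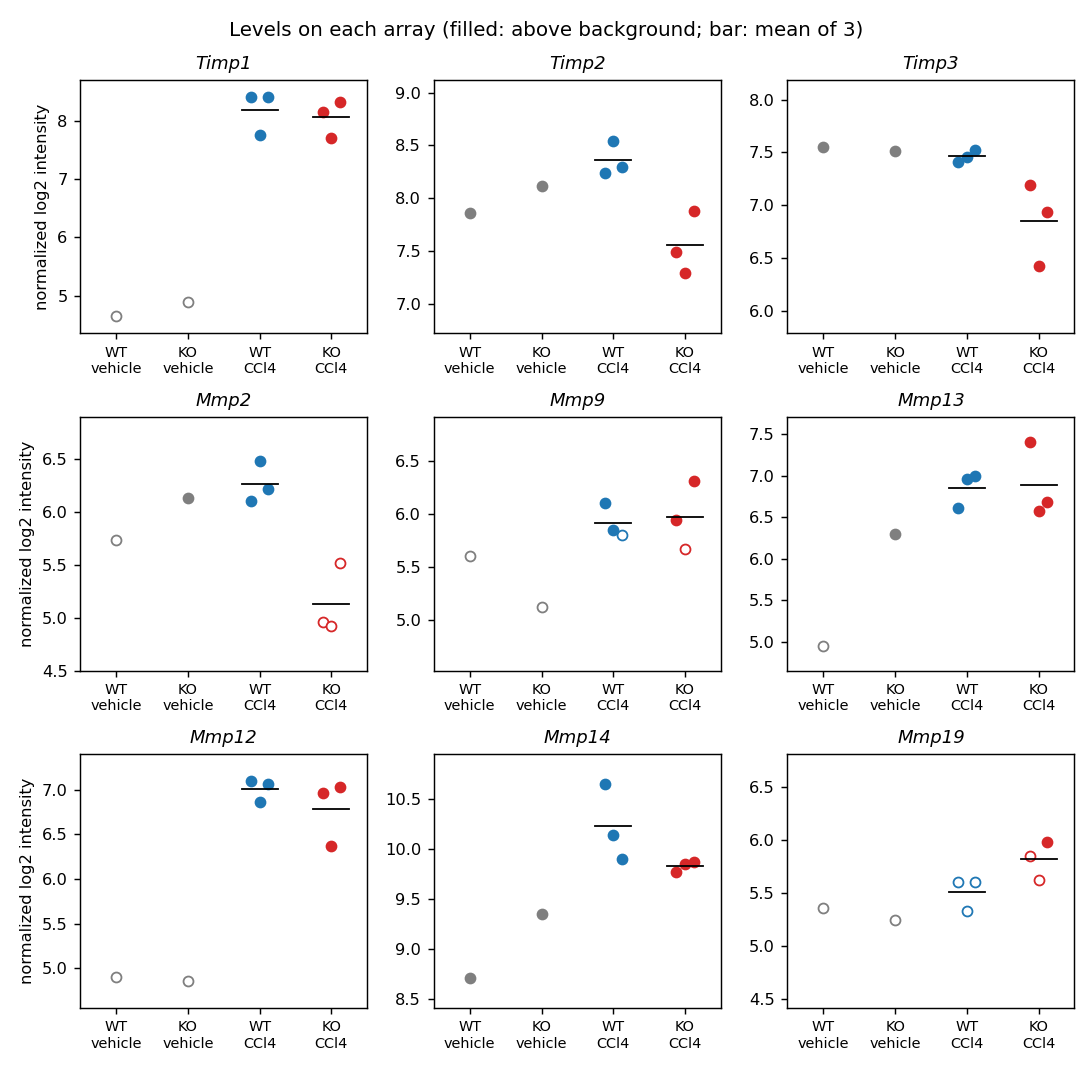
Normalized log2 level (vertical axis) of each of the 9 genes on each of the 8 arrays, by group, with bars at the mean of 3 CCl4 arrays; open points are arrays where the probe was not above background. Timp1, Mmp12, Mmp13 and Mmp14 lie higher on all 6 CCl4 arrays than on both vehicle arrays, and Timp2, Timp3, Mmp2 and Mmp14 lie lower on all knockout than on all wild-type CCl4 arrays. Of the genes not tested, Mmp9 lies higher on all CCl4 than on both vehicle arrays, by a narrow gap between arrays not above background. Mmp19 lies higher on all knockout than on all wild-type CCl4 arrays.

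Timp1, the secreted inhibitor that is a common marker of liver injury, had intensities of 47.3 on the wild-type vehicle array and 54.4 on the knockout vehicle array. Its intensities after CCl4 were 486, 286 and 392 in wild type, and in the knockout 288, 227 and 314. Neither vehicle array was above background, all 6 CCl4 arrays were, and the 2 genotypes overlapped after CCl4. Timp1 rose by 3.36 ± 0.22 (SE) on the log2 scale over vehicle (limma adjusted p = 1.06e-06), which is at least 4.09-fold, since vehicle gives only a bound. Over the alternatives this difference ran from 2.57 to 6.58. It rose in wild type (3.55 ± 0.31, adjusted p = 2.15e-05) and in the knockout (3.17 ± 0.31, adjusted p = 7.5e-05). Its genotype difference after CCl4, knockout minus wild type, was -0.13 ± 0.22 (95% interval -0.61 to 0.36; adjusted p = 0.760). Group means after CCl4 were 8.19 ± 0.37 (SD, n = 3) in wild type and 8.07 ± 0.31 (SD, n = 3) in the knockout. A second Timp1 probe, fitted without the filter, gave a CCl4 difference of 3.21 ± 0.30 (adjusted p = 0.00177; at least 3.26-fold) and a genotype difference of -0.35 ± 0.30 (adjusted p = 0.711).

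Mmp12, the macrophage elastase, had intensities of 59.4 on the wild-type vehicle array and 53.2 on the knockout one. After CCl4 it had 219, 169 and 179 in wild type, and in the knockout 146, 111 and 153. It was above background on all 6 CCl4 arrays and on neither vehicle array, and the normalized levels of the genotypes overlapped. Mmp12 rose by 2.02 ± 0.19 over vehicle (adjusted p = 2.05e-05; at least 1.74-fold; 1.40 to 3.87 over the alternatives), by 2.11 ± 0.27 in wild type (adjusted p = 0.000338) and by 1.92 ± 0.27 in the knockout (adjusted p = 0.000776). Its genotype difference was -0.22 ± 0.19 (95% interval -0.65 to 0.20; adjusted p = 0.509), from 7.01 ± 0.12 (SD, n = 3) in wild type to 6.78 ± 0.36 (SD, n = 3) in the knockout. Beside it, 3 of 7 tested macrophage markers rose after CCl4, where 18.9% of all genes were called higher, and their summed normalized level was 2218 and 2563 on the vehicle arrays, 4053 to 5617 in wild-type CCl4 and 3323 to 5107 in knockout CCl4. Trem2, 1 of the 3 markers that rose, passed the detection filter only through its CCl4 arrays. Itgam, Ccr2 and Fcgr1 did not pass the filter, and the part of cell numbers in the Mmp12 difference was not tested.

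Mmp13, the main interstitial collagenase of rodents, had intensities of 61.7 on the wild-type vehicle array and 97.8 on the knockout vehicle array, the only vehicle array on which it was above background. After CCl4 it had 168, 178 and 174 in wild type, and in the knockout 184, 123 and 129.7. All CCl4 arrays were above both vehicle arrays and the genotypes overlapped. Mmp13 rose by 1.25 ± 0.22 over vehicle (adjusted p = 0.00131) and in wild type by 1.90 ± 0.31 (adjusted p = 0.00161; at least 1.65-fold). In the knockout its difference from vehicle was 0.60 ± 0.31 (adjusted p = 0.181), and the genotypes differed after CCl4 by 0.04 ± 0.22 (95% interval -0.45 to 0.52; adjusted p = 0.934). Each vehicle level is 1 array, and without the wild-type vehicle array only the knockout response enters the CCl4 difference (0.59, adjusted p = 0.182). The other 2 Mmp13 probes were detected on no array.

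Mmp14, the membrane-type enzyme that activates Mmp2, had intensities of 458 on the wild-type vehicle array and 604 on the knockout one. After CCl4 it had 1982, 1287 and 1027 in wild type, and in the knockout 824, 903 and 874. It was detected on 8 of 8 arrays, every CCl4 array was above both vehicle arrays, and the 3 knockout CCl4 arrays were below the 3 wild-type ones. Mmp14 rose by 1.00 ± 0.19 over vehicle (adjusted p = 0.00223) and by 1.51 ± 0.27 in wild type (adjusted p = 0.00274). The knockout response was 0.48 ± 0.27 (adjusted p = 0.217). The genotype difference after CCl4 was -0.40 ± 0.19 (95% interval -0.82 to 0.03; adjusted p = 0.224), from 10.23 ± 0.38 (SD, n = 3) to 9.83 ± 0.05 (SD, n = 3). Without the wild-type vehicle array the CCl4 difference of Mmp14 was 0.48 (adjusted p = 0.214).

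**Figure D2:**
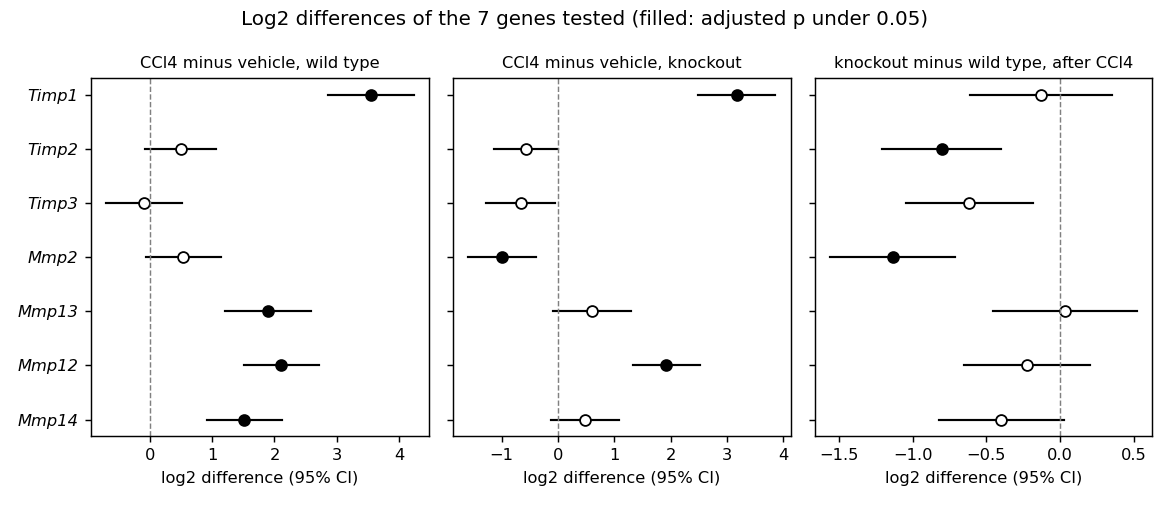
Log2 differences (horizontal axis) of the 7 tested genes, with 95% intervals. Panels show the CCl4 response in wild type, the CCl4 response in the knockout, and the genotype comparison after CCl4. Filled points passed the threshold. Timp1 and Mmp12 lie well above 0 in both CCl4 responses, and Timp2 and Mmp2 lie below 0 in the knockout minus wild-type comparison after CCl4.

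Between the genotypes after CCl4, Mmp2 and Timp2 fell in the knockout, and Timp3 and Mmp14 were lower on every knockout array without passing. Over all genes, 6.49% were called, 2.89% higher and 3.6% lower, and 2 of 7 tested members were called, both lower. The knockout arrays lay wholly below the wild-type arrays for 4 of 7 members, against 16.3% of all genes, and wholly apart in either direction for 30.3%. The median of the 7 members was -0.40, against -0.01 over all genes.

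Mmp2, gelatinase A, which degrades denatured collagen and basement membrane collagen, had intensities of 86.6 on the wild-type vehicle array and 90.7 on the knockout one. After CCl4 it had 129, 138 and 118 in wild type, and in the knockout 58.9, 58.0 and 79.8. The knockout CCl4 arrays were the lowest of the 8, and Mmp2 was above background on none of them, nor on the wild-type vehicle array. Mmp2 fell by 1.14 ± 0.19 in the knockout relative to wild type (adjusted p = 0.0102; at least 1.24-fold lower), from 6.27 ± 0.19 (SD, n = 3) to 5.13 ± 0.33 (SD, n = 3). In the knockout it also fell from vehicle by 1.00 ± 0.27 (adjusted p = 0.0216; at least 1.13-fold), and its wild-type response was 0.54 ± 0.27 (adjusted p = 0.177). The knockout response missed the threshold without knockout CCl4 replicate 1 (adjusted p = 0.0550) or 2 (adjusted p = 0.0573), with the deposited background-subtracted values (0.0531) and with no detection filter (0.0701), and the genotype call with no filter (0.0594). Over all alternatives the genotype difference of Mmp2 ran from -2.14 with the deposited values to -0.75 without background correction.

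Timp2, the inhibitor that serves Mmp2 activation, had intensities of 259 on the wild-type vehicle array and 270.3 on the knockout one. After CCl4 it had 435, 467 and 362 in wild type, and in the knockout 193, 179.7 and 242. It was detected on 8 of 8 arrays, with all wild-type CCl4 arrays above and all knockout CCl4 arrays below their own vehicle array. The share of all genes with this pattern was not counted. Timp2 fell by 0.80 ± 0.18 in the knockout relative to wild type after CCl4 (adjusted p = 0.0302), from 8.36 ± 0.16 (SD, n = 3) to 7.56 ± 0.30 (SD, n = 3). Its responses within genotype were 0.50 ± 0.26 (adjusted p = 0.187) in wild type and -0.56 ± 0.26 (adjusted p = 0.132) in the knockout. The genotype call missed the threshold without wild-type CCl4 replicate 1 (adjusted p = 0.0754) or 2 (0.0676), without knockout CCl4 replicate 1 (0.105) or 2 (0.113), with the deposited values (0.0690) and with no filter (0.0984), and its size ran from -1.02 to -0.67 over all alternatives.

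Timp3, the inhibitor that binds to the matrix and also blocks the sheddase Adam17, had intensities of 217 and 186 on the wild-type and knockout vehicle arrays. After CCl4 it had 262, 241 and 234 in wild type, and in the knockout 165, 114 and 145. The knockout CCl4 arrays were all lower, and the normalized wild-type arrays lay close to their vehicle array. The difference was -0.61 ± 0.20 (95% interval -1.05 to -0.18; adjusted p = 0.0852), from 7.47 ± 0.06 (SD, n = 3) to 6.85 ± 0.39 (SD, n = 3). With median scaling in place of quantile normalization it passed (-0.82, adjusted p = 0.0207), but that scaling moved the median of all genes to -0.17. A second Timp3 probe was detected on no array (37.9 to 57.3).

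**Figure D3:**
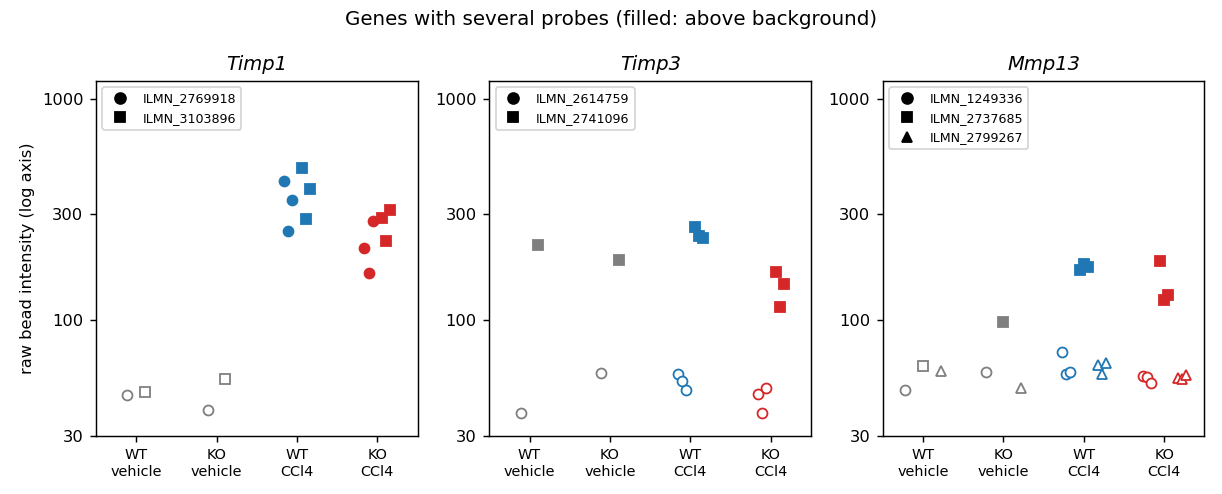
Deposited intensity (vertical axis, log scale) of every probe of Timp1, Timp3 and Mmp13 on each array. Both Timp1 probes are higher on the 6 CCl4 arrays than on the 2 vehicle arrays, whereas the second probe of Timp3 and the other 2 of Mmp13 are not above background on any array.

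Mmp9, gelatinase B, known from neutrophils and macrophages, was detected on 4 of 6 CCl4 arrays and on neither vehicle array, too few in each group to pass the filter. Its intensities were 82.7 and 61.7 on the vehicle arrays, 129, 100.3 and 96.6 in wild-type CCl4 and 90.4, 82.8 and 109 in knockout CCl4. In normalized levels all 6 CCl4 arrays were above both vehicle arrays, as for 19% of tested genes, and the genotypes overlapped after CCl4. The gap was narrow, with knockout CCl4 replicate 2 at 5.67 and the wild-type vehicle array at 5.61, neither above background. Fitted without the filter, the CCl4 difference was 0.58 ± 0.18 (adjusted p = 0.0875) and the genotype difference 0.05 ± 0.18 (adjusted p = 0.946). With detection required on 3 of 8 arrays Mmp9 entered the test and passed for CCl4 (0.58, adjusted p = 0.0343). Of 9 neutrophil markers on the array 3 were tested and all 3 rose after CCl4 (18.9% of all genes did), with a summed level of 507 and 642 on the vehicle arrays, 1859 to 2580 in wild-type CCl4 and 1926 to 7557 in knockout CCl4. Csf3r, 1 of the 3, passed the detection filter only through its CCl4 arrays. The part of these markers in the Mmp9 values was not tested, and Mpo, Elane, Camp, Ngp, Ltf and Cxcr2 did not pass the filter. Mmp19 was detected on 1 array of 8, with intensities of 74.8 and 65.1 on the vehicle arrays, 100.3, 77.2 and 88.4 in wild-type CCl4 and 87.3, 81.1 and 95.5 in knockout CCl4. Its unfiltered limma CCl4 difference was 0.36 ± 0.13 (adjusted p = 0.128) and its genotype difference 0.31 ± 0.13 (adjusted p = 0.346). In normalized levels its knockout CCl4 arrays all lay above the wild-type ones. The genotypes lay wholly apart in either direction for 30.3% of tested genes.

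Whether the CCl4 response itself differed between genotypes was tested as an interaction, knockout response minus wild-type response, in the same model. None of the 7 members passed with limma, against 0.358% of all genes called, and 4 of 7 had an unadjusted p under 0.05, as had 19.9% of all genes. These were Mmp2 (-1.53 ± 0.39, adjusted p = 0.0860), Timp2 (-1.06 ± 0.37, adjusted p = 0.158), Mmp13 (-1.30 ± 0.44, adjusted p = 0.155) and Mmp14 (-1.04 ± 0.39, adjusted p = 0.183). The value for Timp3 was -0.58 ± 0.39 (adjusted p = 0.439), and those for Timp1 (-0.37 ± 0.44) and Mmp12 (-0.19 ± 0.39) were smaller than their standard errors. The vehicle level of each genotype rests on 1 array. The genotype and interaction comparisons share the CCl4 arrays, so their values are given only side by side. The share of genes called was 24% for the wild-type response and 25.8% for the knockout response, with 4 of 7 members higher and 0 lower in wild type, where 12.4% of all genes were called higher. In the knockout 2 were higher and 1 was lower, where 13% of all genes were called higher and 12.8% lower.

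Most other genes of the family were not above background on these arrays. Of 16 other family genes on the array, 12 were detected on no array and 1 was tested, Mmp1a, whose CCl4 difference was 0.03 ± 0.19 (adjusted p = 0.917). Among 5 tested ADAM and ADAMTS proteases, Adamts7 fell after CCl4 by 0.82 ± 0.27 (adjusted p = 0.0362), where 18.6% of all genes were called lower, and 0 of 5 passed between genotypes, none with an unadjusted p under 0.05.

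The plasminogen system, which generates plasmin, an activator of several MMP precursors, had 8 tested genes. After CCl4 5 were higher and 1 was lower, with a median of 0.74. Of the 5, Plau and Plaur passed the detection filter only through their CCl4 arrays. Over all genes 18.9% were called higher and 18.6% lower, with a median of -0.02. Anxa2, the annexin that with S100a10 forms a plasminogen receptor, rose by 3.52 ± 0.22 (adjusted p = 7.05e-07) and S100a10 by 1.41 ± 0.23 (adjusted p = 0.000748). Plau, the urokinase protease, rose by 1.58 ± 0.19 (adjusted p = 9.44e-05; at least 1.73-fold, being below background on vehicle). Hrg, a plasma protein that binds plasminogen, fell by 1.04 ± 0.16 (adjusted p = 0.000447). Between genotypes 0 of 8 passed with limma, 3 had an unadjusted p under 0.05 (25.2% of all genes had), and the median was -0.13.

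Of 5 tested genes that activate, induce or clear MMPs, 2 rose after CCl4, where 18.9% of all genes were called higher. Cd63, a tetraspanin that binds Timp1, rose by 3.98 ± 0.21 (adjusted p = 2.58e-07), and Cd44, a hyaluronan receptor that docks Mmp9, rose by 0.81 ± 0.24 (adjusted p = 0.0207; at least 1.56-fold). Of 4 tested AP-1 subunits 3 rose, against the same 18.9%: Junb by 2.96 ± 0.21 (adjusted p = 1.88e-06), Jun by 2.15 ± 0.34 (adjusted p = 0.000637) and Fos by 4.59 ± 0.64 (adjusted p = 0.000266; at least 11.5-fold). Among 3 tested cytokine genes 1 rose, against the same share: Il1rn, the interleukin-1 receptor antagonist, which rose by 1.98 ± 0.26 (adjusted p = 0.000199; at least 2.87-fold). Cd44, Fos and Il1rn passed the detection filter only through their CCl4 arrays, so these counts of higher genes are not independent of the filter. Between genotypes none of these 3 lists had a call. An unadjusted p under 0.05 was found for 1 of 5, 2 of 4 and 1 of 3 of their genes, and for 25.2% of all genes. All were lower in the knockout: Furin (-0.34 ± 0.15, adjusted p = 0.192), Fos (-1.42 ± 0.64, adjusted p = 0.191), Junb (-0.71 ± 0.21, adjusted p = 0.0649) and Tgfb1 (-0.51 ± 0.15, adjusted p = 0.0653).

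The collagens and basement membrane proteins that these enzymes cut, listed with proteins that bind or crosslink them, had 10 tested genes, and 5 fell in the knockout after CCl4, with a median of -0.65. Over all genes 3.6% were called lower in that comparison, with a median of -0.01. Col1a1, a chain of type I collagen, fell by 1.46 ± 0.21 (adjusted p = 0.00366), and was above background on 3 wild-type and 0 knockout CCl4 arrays, at least 1.57-fold lower. Col1a1 passed the detection filter only through those wild-type CCl4 arrays, so its calls are not independent of the filter. Lamc1, a laminin chain, fell by 1.02 ± 0.17 (adjusted p = 0.00796) and Col5a1 by 0.98 ± 0.18 (adjusted p = 0.0143). Col4a2, a basement membrane collagen chain, fell by 0.85 ± 0.18 (adjusted p = 0.0229). After CCl4, 9 of 10 rose in wild type (median 1.38) and 1 of 10 in the knockout (median 0.20), Nid1, which rose by 1.75 ± 0.36 (adjusted p = 0.00563). Over all genes 12.4% were called higher in wild type and 13% in the knockout. The difference between these responses was called by limma for 0 of 10 genes, of which 7 had an unadjusted p under 0.05, as had 19.9% of all genes.

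**Figure D4:**
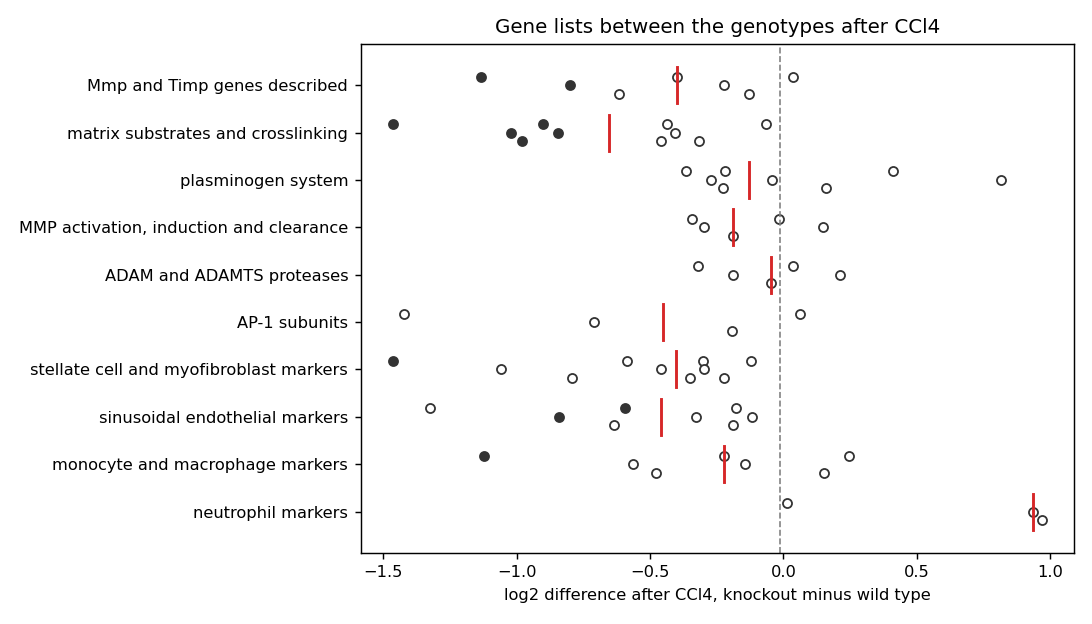
Knockout minus wild-type log2 difference after CCl4 (horizontal axis) of each tested gene in the lists drawn, by list. Filled points passed the threshold. Lists of other family members and cytokines, and of Kupffer cell, hepatocyte and mesothelium and adipose markers, are not drawn. In the matrix list 5 of 10 genes lie below 0 and are filled, against 2 of 7 for the MMP and TIMP genes themselves.

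Markers of cells known to make these proteins were set beside the genotype comparison, in which 6.49% of all genes were called and 3.6% were called lower. The summed level of 10 tested stellate cell markers was 7466 and 7994 on the vehicle arrays, 10883 to 13548 in wild-type CCl4 and 8641 to 9039 in knockout CCl4, without overlap after CCl4. This sum is of linear levels and mostly reflects the brightest markers, Dcn and Reln. Dcn had intensities of 7710, 6342 and 6598 in wild-type CCl4, and in knockout CCl4 4572, 5050 and 4927. It did not pass with limma (-0.35 ± 0.15, adjusted p = 0.164). Of the 10 stellate cell markers, Col1a1, also a matrix gene, was called lower by limma, 1 of 10 being near the share over all genes. Only its wild-type CCl4 arrays let Col1a1 pass the detection filter. The median of the 10 was -0.40, against -0.01 over all genes. An unadjusted p under 0.05 was found for 5 of 10, and for 25.2% of all genes. Those that did not pass included Vim (-1.06 ± 0.29, adjusted p = 0.0527), Reln (-0.79 ± 0.22, adjusted p = 0.0515) and Lrat (-0.59 ± 0.18, adjusted p = 0.0736). Acta2 (-0.30 ± 0.24, adjusted p = 0.482) and Des (-0.12 ± 0.16, adjusted p = 0.683) did not pass either. Tagln, Pdgfrb, Col1a2 and Rgs5 did not pass the filter. Of 8 tested sinusoidal endothelial markers, 2 fell in the knockout, Lyve1 by 0.84 ± 0.19 (adjusted p = 0.0302) and Stab2 by 0.59 ± 0.16 (adjusted p = 0.0481). Their summed level was 5692 on the wild-type and 4535 on the knockout vehicle array, 6669 to 7374 in wild-type CCl4 and 5355 to 5599.9 in knockout CCl4. The knockout sum was thus the lower on vehicle too. Clec4g, the brightest of these markers, did not pass with limma (-0.33 ± 0.15, adjusted p = 0.188). The part of these in the lower Mmp2 and Timp2 values was not tested. The hepatocyte markers overlapped, at 61002 to 75863 in wild-type and 63289.8 to 65823 in knockout CCl4. Of 7 tested macrophage markers limma called 1 lower, Gpnmb (-1.12 ± 0.26, adjusted p = 0.0302; at least 1.73-fold), and their median was -0.22. Among 5 tested Kupffer cell markers 0 passed, with a median of -0.11. The 3 tested neutrophil markers went the other way without passing: S100a8 (0.94 ± 0.39, adjusted p = 0.166), S100a9 (0.97 ± 0.43, adjusted p = 0.183) and Csf3r (0.01 ± 0.20, adjusted p = 0.977).

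Genes with the most similar pattern were found by the root mean square distance between log2 profiles, each minus its own mean over the 8 arrays. For Mmp2, whose own profile had a root mean square of 0.546, the nearest gene was Timp2 (0.178), followed by Cd83 (0.196) and Tapbp (0.202). For Timp2 (own value 0.392) they were Tpp1 (0.107), Fam122b (0.140) and Metap2 (0.141). For Timp1 (1.48) they were Lgals1 (0.174), Anxa2 (0.220) and Apoa4 (0.221), and Lgals1 encodes a galectin. For Mmp12 (0.899) they were Lgals3 (0.213), Lrg1 (0.216) and Cenpn (0.217), with Lgals3 being a galectin abundant in macrophages. For Mmp14 (0.527) they were Sec61a1 (0.113), Myh9 (0.123) and Pfn1 (0.124). For Timp3 (0.369) and Mmp13 (0.682) the distances were larger relative to their own profile, led by Cdc23 (0.154) and H3c6 (0.263). The likeness describes 8 arrays that share the same groups.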

How the data were processed

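Liver RNA was measured on 8 Illumina bead arrays, and groups were taken from the sample titles. The deposited table holds linear bead intensity values, 1 for each probe on each array and not normalized across arrays, with a detection p-value beside it, per the file headers. The deposited value table holds the same intensities minus 1 constant per array (48.57 to 56.83; column medians 12.3 to 20.0), with the reason for the constant unknown, and was used as an alternative. The scanner software and the processing behind the intensity values are among the details not given in the sources used here.

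Intensities were background-corrected with neqc in limma 3.58.1 (R 4.3.3; offset 16, with control beads estimated from detection p-values), quantile normalized and put on the log2 scale. A probe was kept (10128 were) if all arrays of some group had a detection p-value below 0.01, and each gene was represented by its brightest kept probe on average. The platform annotation gives 1 symbol to 23978 probes, several to 0 and none to 1719. Means of 4 groups were fitted with lmFit and eBayes, with Benjamini-Hochberg adjustment over 7257 genes. The 4 residual degrees of freedom come from the CCl4 arrays, and the lone vehicle arrays are assumed to vary like them. Where a probe was not above background on any array of a group, a fold is given as "at least N-fold": the bright group's mean against, per array, the higher of the dim probe's signal and the lowest signal above background. The method was run on simulated data that gave every array the same spread, so the assumption about the vehicle arrays was not checked. The members and gene lists were chosen with earlier results of these data known. All members were named, with up to 4 genes of smallest p past the threshold from each other list, and up to 3 genes of nearest profile per member. The alternatives changed the background step, normalization, source of values, filter, probe rule, variance model, replicate block and arrays included.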

Additional observations from a re-analysis of the deposited data

Results flagged for a closer look

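For Timp2 and Mmp2 every wild-type CCl4 array was above, and every knockout CCl4 array below, the vehicle array of its genotype. The share of all genes with this pattern was not counted. Mmp2 was above background on none of the knockout CCl4 arrays, nor on the wild-type vehicle array. The response in the knockout minus that in wild type was -1.06 ± 0.37 (SE) on the log2 scale for Timp2 (limma adjusted p = 0.158) and -1.53 ± 0.39 for Mmp2 (limma adjusted p = 0.0860). Neither difference passed the test, and each rests on 1 vehicle array per genotype.

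Probes left out by the detection filter were detected on CCl4 arrays and on neither vehicle array for 5 genes. The highest CCl4 intensity was 129 for Mmp9, which was detected on 4 CCl4 arrays. It was 129 for Mmp23 (detected on 2 CCl4 arrays), 125 for Mmp3 (on 1), 100.3 for Mmp19 (on 1) and 93.2 for Mmp24 (on 1).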

How the results depend on the processing

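Timp1 and Mmp12 passed for CCl4, averaged and in each genotype, under each alternative run, but their sizes moved, and the averaged Timp1 difference ran from 2.57 to 6.58. Of the member values under alternatives, 504 kept direction and side of the threshold, 13 lost it, 3 gained it and 12 reversed. The genotype comparison called 2 members: 3 with median scaling, 1 with deposited values, 0 with no filter, and 1 to 2 leaving out 1 array. It called 471 genes: 875 with median scaling (171 higher and 704 lower, against 210 and 261), 172 with deposited values, 107 with no filter, and 121 to 803 leaving out 1 array. The averaged CCl4 response called 2722 genes, or 1738 to 2995 leaving out 1 array. The interaction called 26 genes: 79 with deposited values, 46 without background correction, 1 with no filter, 76 with the trended robust variance, and 14 to 127 leaving out 1 array. With deposited values it also called 1 member, Timp1 (-3.07, adjusted p = 0.0363), whose vehicle values lie near the floor of 1. Median scaling split the wild-type response 1149 higher and 650 lower, against 897 and 845, and the interaction 14 and 25, against 13 and 13. Uncalled values that reversed were the genotype difference of Mmp13 (-0.17 with median scaling, -0.22 to 0.19 leaving out 1 array) and of Timp1 (-0.34 to 0.047 leaving out 1 array). They were also the averaged CCl4 difference of Timp2 (0.057 with median scaling, -0.56 to 0.49 leaving out 1 array) and of Mmp2 (-1.01 without the wild-type and 0.54 without the knockout vehicle array). The wild-type response of Timp3 was 0.10 with median scaling and 0.058 with the block, and the interaction of Mmp12 0.067 with deposited values and -0.31 to 0.022 leaving out 1 array. Without the wild-type vehicle array the CCl4 comparison is the knockout response alone, and Mmp2 passed in it (adjusted p = 0.0208). The cause of these changes was not tested. With the replicate number as a block, 2 members and 428 genes were called for genotype, 4 and 1917 for the averaged response, 4 and 1386 in wild type, 3 and 1346 in the knockout, and 0 and 35 for the interaction. Same-numbered CCl4 arrays deviated from their group means with correlations of -0.12, -0.11 and -0.01. With 3 arrays per group after quantile normalization, these values cannot tell whether same-numbered samples share a batch. A slide block was not run, since the column names give no slide. Signal near background limits what can be read for Mmp2, Mmp9 and Mmp19.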
